A study of Mus musculus with 6 samples.

Results

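The transcriptome described here is that of solvent-treated CT26 tumours, the control arm of a study of irinotecan. It comprised the 3 solvent libraries of the 6 libraries in the series, and the 16208 protein-coding genes among the 25251 rows of the deposited table. The libraries were chosen by their treatment label and the genes by their annotated biotype, so no measured value entered the choice. Values of the irinotecan group were not used. CT26 is a colon carcinoma line of BALB/c mice, and here it grew under the skin of BALB/c hosts. The labels give the cell line as CT26, the cell type as colon cancer cell, the genotype as WT and the treatment as solvent. They do not say what the solvent was, how often it was given or when the tumours were taken, nor the age or sex of the mice. Mice were randomized at a tumour volume of 100 mm3, before any treatment. Each tumour was frozen and its total RNA was sequenced as a bulk sample, so cancer cells and host cells were measured together. The labels do not state that the 3 samples came from separate mice, and the series text speaks of duplicates. All 3 were used, and the spread reported below is that between these samples.

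Values are given in the order of tumours 1, 2 and 3. A normalized count is a gene's read count divided by 1 factor for its library, as deposited. Levels of different genes were compared only after division by gene length, as normalized counts per kb, and ranks run from 1 for the highest of the 16208 genes. A gene's percentile is its place in that order, with 100 for the highest. Means are given ± SD over the 3 tumours (n = 3 throughout). With 1 group and 3 samples no test was made, and all differences between tumours below are descriptions. The libraries held between 13940650 and 15656894 reads, of which 97.1 to 97.2% fell in protein-coding genes. A gene without a read in a library could have had up to 3 reads, or 2.80, 3.14 and 2.90 normalized counts. At least 1 tumour had a read for 15773 genes, all 3 tumours had one for 14030, and 435 genes had none. A mean of at least 10 normalized counts was reached by 12520 genes and a mean of at least 100 by 9922. Read counts of each pair of tumours differed by more than counting noise (chi-square per degree of freedom 11.1 to 14.6), so no library was a copy of another.

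A solid tumour is a tissue. Cancer cells divide within a scaffold of matrix made by fibroblasts and by themselves, vessels supply it with blood, and macrophages, neutrophils and lymphocytes enter from the host. A transplanted line in a host of the same strain leaves the immune system in place, which is why CT26 is used to study both chemotherapy and immunity. The line arose from a chemically induced colon tumour and is known to grow as an undifferentiated carcinoma. In bulk RNA, fewer cells of a type and less RNA per cell cannot be told apart.

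The most abundant transcripts came from mitochondria and the translation machinery, and the osteopontin gene Spp1 stood among them. Cytochrome oxidase subunit gene mt-Co1 ranked first at 146475 ± 8629 normalized counts per kb, followed by mt-Cytb, which encodes cytochrome b of complex III, at 90202 ± 4631. Translation elongation factor gene Eef1a1 was at 84526 ± 2084 per kb, rank 3. Spp1, a secreted phosphoprotein made by tumour macrophages and by many carcinoma cells, was at 69367 ± 8492 per kb, rank 4. Its normalized counts were 111501, 101944 and 129505, highest in tumour 3 and lowest in tumour 2. Fth1, which encodes the ferritin heavy chain that stores iron, and B2m, the light chain of MHC class I, ranked 10 and 11. The galectin gene Lgals1 and the intermediate filament gene Vim ranked 17 and 18. The 20 highest genes also held 4 ribosomal protein genes (Rplp1, Rps3a1, Rpl4 and Rps4x), the translation factor Eef2, the growth-related Tpt1 and the chaperone Hsp90ab1.

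The highest genes took a large share of the signal. The 10 highest genes took 16 ± 0.896% of the per-kb signal of all protein-coding genes, the 100 highest 34 ± 0.680% and the 1000 highest 61.6 ± 0.740%. Without division by length, the same 1000 genes took 43.9 ± 0.647% of the reads in protein-coding genes. Of the per-kb signal, the 13 mitochondrially encoded genes alone took 11 ± 0.874%, and 82 genes with a cytosolic ribosomal protein symbol took 11 ± 0.360%. Their shares of the reads in protein-coding genes were lower, at 3.93 ± 0.303% and 5.37 ± 0.214%. Of these ribosomal genes, 41 were among the 100 highest genes, while some others ranked far lower, as given below. The mitochondrial share of the per-kb signal was 10.3, 10.7 and 11.9% in the 3 tumours, highest in tumour 3. At the other end, the 3688 genes with a mean under 10 together took 0.110 ± 0.00735% of the per-kb signal.

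Some genes that are abundant in nearly every cell were low in the table. Gapdh, the glycolytic enzyme gene with many processed copies in the mouse genome, had 401, 544 and 452 normalized counts and ranked 6074. Among mitochondrial genes, mt-Co3 had 511, 424 and 596 normalized counts and mt-Atp8 had 3.74, 2.09 and 0.968. Per kb these were 652 ± 109.7 and 11.1 ± 6.83, far below mt-Co1. The ribosomal protein genes Rpl24, Rpl21 and Rpl29 ranked 6942, 9950 and 10537. Reads shared between near-identical copies may have been lost or split in the counting, and this was not tested. The annotated mt-Nd6, which lies on the strand opposite to mt-Nd5 and overlaps its end, ranked 7. No source used here states whether strand was used in counting, so reads from both strands of the mitochondrial genome cannot be told apart.

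**Figure D1:**
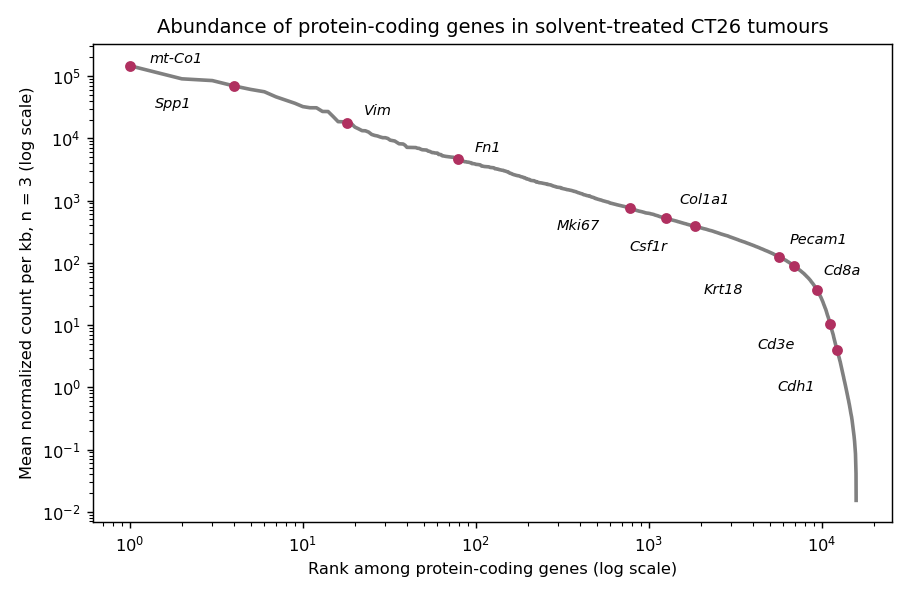
Mean normalized count per kb of each protein-coding gene with a read (vertical, log scale) against its rank (horizontal, log scale), with 12 genes marked. Marked genes ran from mt-Co1 at 146475 per kb, through Vim at rank 18 and Mki67 at rank 776, to Cdh1 at rank 12228.

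The tumours carried a mesenchymal and largely non-epithelial profile, although the label calls the cells colon cancer cells. The adhesion molecule gene Epcam, which marks most carcinomas, had no read in any tumour, and neither did the tight junction gene Ocln. E-cadherin gene Cdh1 had 15, 13.6 and 26.1 normalized counts. Of the simple-epithelium keratins, Krt8 had 50.5, 65.9 and 80.4 normalized counts, at percentile 41.2, and Krt18 had 124, 142 and 123, at percentile 57.6 and so near the middle of the order. The median percentile of the 18 epithelial genes with a row was 15.2, and 12 of them had a mean under 10. Another 5 listed genes (Cldn3, Cldn4, Cdx1, Fabp1 and Esrp1) were not analysed here. Only 2 genes of the list had over 1000 normalized counts. Krt20, the keratin of differentiated gut epithelium, had 1759, 1608 and 2098 and ranked 581, which made up 65.9% of the summed per-kb level of the list. Ceacam1, a cell adhesion gene also used by leukocytes and endothelium, had 1802, 1568 and 1996 normalized counts. The intestinal transcription factor gene Cdx2 had 2.80, 1.05 and 4.84 and the mucin gene Muc2 had 7.48, 6.27 and 2.90.

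All 15 genes of the mesenchymal list passed a mean of 100, and their median percentile was 91.0. Vim had 93206, 83999 and 77102 normalized counts, highest in tumour 1. N-cadherin gene Cdh2 had 1075, 1037 and 1097, nearly level between tumours, and its level per kb was 133 ± 3.76 against 3.99 ± 1.51 for Cdh1. Transcription factors that repress epithelial genes were all read. Twist1 had 1084, 1065 and 1106 normalized counts, Zeb2 had 3005, 3122 and 3135 and Snai2 had 346, 344 and 337. The homeobox gene Prrx1 had 6154 ± 513 normalized counts. Axl, a receptor tyrosine kinase tied to mesenchymal states, ranked 156 at 2786 ± 248 per kb, and the hyaluronan receptor gene Cd44 ranked 351. This list was the most even of those with at least 5 members of mean 10 or more: its median level differed between the highest and the lowest tumour by 0.034 on the log2 scale. Fibroblasts of the host also use these genes, and the share from cancer cells was not measured.

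Genes of the dividing cell were high in all 3 tumours. All 31 members of the cell division list passed a mean of 100, with a median percentile of 92.8 and a median coefficient of variation (CV, SD over mean) of 10.6%. Mki67, the antigen by which pathologists count cycling cells, had 8303, 7689 and 6881 normalized counts. DNA topoisomerase gene Top2a had 8465, 9647 and 7700.0, and Pcna, the sliding clamp of replication, had 6215, 5254 and 6554, which gave it the top rank of the list (176). The helicase subunits Mcm2 to Mcm7 had means between 2061 and 4321 normalized counts. Levels were highest in tumour 1 for 21 of the 31 genes and lowest in tumour 3 for 19, against 31.9% and 36.7% of all genes with a mean of at least 10. The median difference was small, at 0.17 on the log2 scale between tumours 1 and 3. Stmn1, which destabilizes microtubules, had the widest range with 1234, 914 and 674. None of the 31 genes differed 2-fold between tumours, which is near the share of all genes with a mean of at least 100 (1.34%).

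Because these genes are switched on together in the cell cycle, the promoters of the 3 members with an entry and the highest mean normalized count, not divided by length, are shown. Sequences are from RefSeq on GRCm38.p6 and give the 120 bases before the annotated start, 5′ to 3′, with capitals for matches on either strand to 3 motifs. The CCAAT box was searched as the letters CCAAT. The TATA box was searched as TATAA, and the core of the interferon-stimulated response element as GAAA repeated with any 2 bases between.
Top2a: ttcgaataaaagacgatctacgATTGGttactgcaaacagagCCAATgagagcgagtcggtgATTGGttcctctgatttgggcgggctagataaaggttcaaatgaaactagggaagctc
Mki67: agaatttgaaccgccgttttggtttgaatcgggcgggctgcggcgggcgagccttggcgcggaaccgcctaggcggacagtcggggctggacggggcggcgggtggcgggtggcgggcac
Pcna: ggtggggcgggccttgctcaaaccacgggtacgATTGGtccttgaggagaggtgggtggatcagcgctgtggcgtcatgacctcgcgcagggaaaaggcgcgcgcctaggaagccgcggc
The Top2a stretch holds 3 CCAAT matches and the Pcna stretch 1, whereas the 3 matches of Mki67 lie outside the printed part of its 300-base window. Over that window (250 bases before to 50 after the start), 22 of the 25 cell division promoters with an entry held CCAAT and 0 held TATAA. Of the 7918 promoters of genes with a mean of at least 100, 39.1% held CCAAT and 12.2% held TATAA. Over all 27025 promoters listed, unread genes included, the shares were 37.9% and 25.5%. A match is a description of the letters and not evidence of binding.

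Genes of growth control and drug response were mostly well above the detection limit. The label gives no tumour genotype beyond WT, while CT26 is known to lack Cdkn2a. Cdkn2a, which encodes the tumour suppressors p16 and ARF, had 0.935, 6.27 and 4.84 normalized counts, and its neighbour Cdkn2b had 5.61, 6.27 and 9.68. Both lay at or near the level that a few reads give. Cyclin D1 gene Ccnd1 was the second highest of the list at 2635 ± 166 per kb, with Axl the highest, and its kinase partner Cdk4 was at 1345 ± 152. Trp53 had 2286, 2148 and 2124 normalized counts and Mdm2, which encodes the p53 ubiquitin ligase, had 2826, 2832 and 2852. Top1, the enzyme gene that irinotecan's active form poisons, had 2178, 2385 and 2354 and ranked 3466. Myc had 3058, 2385 and 2875. Growth factor receptor gene Egfr was at 4.03 ± 0.218 per kb, far below the receptor gene Met at 309 ± 28.4.

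Glycolytic enzymes were among the most abundant mRNAs, and tumour 2 had the highest level of nearly the whole list. The median percentile of the 24 glycolysis and hypoxia genes was 93.1, next to 92.8 for the cell division genes. Without tumour 2 it was 91.3 against 92.6, and without division by length it was 88.2 against 91.7, so the order of these 2 lists was not stable. Lactate dehydrogenase gene Ldha ranked 55 with 17980.3, 22398 and 19419 normalized counts, and phosphoglycerate kinase gene Pgk1 ranked 61 with 10804, 15429 and 10767. Tumour 2 was highest for 23 of the 24 genes, against 34.7% of all genes with a mean of at least 10. Its median lead over the lowest tumour was 0.33 on the log2 scale. Genes known to be induced by low oxygen showed the widest gaps. Carbonic anhydrase gene Car9 had 226, 581 and 169 normalized counts, so tumour 2 stood apart from both others. Bnip3, which acts in the removal of mitochondria, had 1016, 2059.7 and 1304, and the collagen prolyl hydroxylase gene P4ha1 had 1694, 3083 and 1971. Vegfa, the angiogenic growth factor gene, had 2226, 3098 and 2354. Egln3 was the exception, with 78.5, 73.2 and 70.7 normalized counts, and Adm was nearly level at 67.3, 70.1 and 60. A 2-fold range was reached by 2 of the 24 genes (8.33%), Car9 and Bnip3, against 6.65% of all genes with a mean of at least 10. Both had a mean of at least 100, a class in which 1.34% of all genes did so.

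Matrix genes spanned a wide range of levels. The 29 fibroblast and matrix genes had a median percentile of 57.9 and ran from rank 79 for fibronectin gene Fn1 to rank 12129 for fibulin gene Fbln1. Fn1 had 53727, 60709.5 and 47024 normalized counts and carried 34.7% of the summed per-kb level of the list. Collagen I genes differed from each other, with 1658 ± 178 per kb for Col1a2 and 519 ± 62.1 for Col1a1. The proteins form 1 trimer, with more of the Col1a1 chain than of the Col1a2 chain. Osteonectin gene Sparc had 6394, 6394 and 6697 normalized counts, nearly the same in all tumours. The fibroblast genes Pdgfra and Fap were lower per kb than these. They do not stand for all fibroblast genes of the list, which also holds the decorin gene given below. Pdgfra, the PDGF receptor of fibroblasts, had 788, 1144 and 732 normalized counts (88.6 ± 22.3 per kb), and Fap, the protease gene of activated fibroblasts, had 22.4, 71.1 and 57.1 (8.87 ± 4.43 per kb). Tumour 2 was highest for 16 of the 29 genes, against 34.7% of all genes with a mean of at least 10. Decorin gene Dcn had 3658, 7334 and 3517 and dermatopontin gene Dpt had 24.3, 112 and 38.7, both highest in tumour 2, while tenascin gene Tnc had 1119, 523 and 947 and was lowest there. A 2-fold range was reached by 8 of the 29 genes (27.6%), compared with 6.65% of all genes tested. The counts of 4 of these 8 genes averaged at least 100, a class in which 1.34% of all genes reached that range.

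Contractile and vascular genes were modest in level. Smooth muscle actin gene Acta2 had 188, 187 and 175 normalized counts, whereas the smooth muscle genes Tagln and Myh11 had 2.80, 8.36 and 4.84 and 23.4, 22 and 16.5. Pericyte genes Rgs5 and Pdgfrb had 444, 442 and 495 and 1119, 1333 and 837. Desmin gene Des was lower in tumour 2, with 124, 29.3 and 103, and the potassium channel gene Kcnj8 had 90.7, 47 and 99.7. These 2 of the 11 pericyte and smooth muscle genes with a mean of at least 10 (18.2%) reached a 2-fold range. Both had a mean from 10 to under 100, a class in which 26.9% of all genes did so. The median CV of the 11 genes was 22.7%, against 10.8% for all genes with a mean of at least 10. Only 5 of the 11 had a mean of at least 100, and all genes with a mean from 10 to under 100 had a median CV of 25.0%. The higher CV of the list is therefore not set apart from its low level. Among the 22 endothelial genes, Pecam1 had 801, 707 and 822 normalized counts, Cdh5, the cadherin of endothelial junctions, had 930.2, 827 and 844, and Plvap, a gene of fenestrated vessels, had 681, 566 and 603. None of the 22 genes reached a 2-fold range, and 15 of them had a mean of at least 100, where only 1.34% of all genes did so. The list had a median percentile of 45.7 and a median CV of 12.3%. Esm1, a secreted proteoglycan gene of sprouting vessels, was far above the others, with 8743, 9073 and 11616 normalized counts and rank 78, and made up 73.1% of the summed per-kb level of the list. The next highest, Ecscr, was at 319.7 ± 30 per kb against 4678 ± 749.7 for Esm1. The cell of origin of the Esm1 reads was not measured. Of the 5 lymphatic endothelial genes with a row, 3 had a mean under 10. Prox1, the defining transcription factor gene of lymphatic vessels, had 1.87, 0 and 0 normalized counts. The other 2 were higher: Flt4 had 67.3, 57.5 and 45.5, and Lyve1, which macrophages also use, had 203, 151 and 210.1.

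Macrophage genes were the highest of all leukocyte lists. The 31 macrophage and monocyte genes had a median percentile of 80.9, and 29 of them had a mean of at least 100. Lysozyme gene Lyz2 ranked 29 with 13359, 13075 and 13933 normalized counts and was level between tumours. Csf1r, the receptor for the growth factor that sustains macrophages, had 1964, 1954 and 1734, and Adgre1, which encodes the F4/80 antigen, had 656, 729.8 and 564. Mannose receptor gene Mrc1 had 5191, 4775 and 4809, and the integrin gene Itgam had 819, 834 and 807, the most even of the list. Complement genes C1qa, C1qb and C1qc had 1485, 1203 and 904, then 2239, 2264 and 1432, then 2142, 2051 and 1650.0, each lowest in tumour 3. Tumour 3 was lowest for 19 of the 30 members with a mean of at least 10, against 36.7% of all genes. It was highest for Arg1, the arginase gene of suppressive myeloid cells, with 508, 635 and 955. Nos2, which makes nitric oxide in inflammatory macrophages, had 100.0, 127 and 121. Ly6c2, a marker of blood monocytes, had 18.7, 25.1 and 3.87, whereas the monocyte chemokine receptor gene Ccr2 had 1028, 1308 and 1108. Spp1 held 73.1% of the summed per-kb level of the list, and how much of it came from cancer cells was not measured.

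Neutrophil genes were low, and higher in tumour 3. The 19 genes with a row had a median percentile of 33.2, and 13 of them had a mean of at least 10. Calprotectin genes S100a8 and S100a9 had 43, 30.3 and 101 and 67.3, 45 and 173 normalized counts, and chemokine receptor gene Cxcr2 had 13.1, 14.6 and 47.4. In tumour 3 these values were over those of both other tumours, as they were for 11 of the 13 genes, against 33.4% of all genes tested. The median difference between tumours 3 and 2 was 0.81 on the log2 scale. A 2-fold range was reached by 9 of the 13 genes, but only 5 of the 13 had a mean of at least 100, and 26.9% of all genes with a mean from 10 to under 100 reached that range. Granule genes of immature cells were at the detection limit, with 0.935, 3.14 and 0 normalized counts for Mpo and 0, 4.18 and 0 for Elane. Mmp9 ran the other way, with 330.0, 248 and 181, and Csf3r was nearly level with 166, 199.7 and 173. Cxcl2, a chemokine gene that draws neutrophils and was not on the list, had 72, 36.6 and 226 and was also highest in tumour 3.

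Most dendritic cell genes stood in the lower part of the order, and mast cell proteases near its middle. Dendritic cell genes had a median percentile of 33.3. Xcr1 and Clec9a, markers of the cross-presenting subset, had 43, 47 and 24.2 and 29.9, 41.8 and 27.1 normalized counts, and Flt3 had 18.7, 23 and 11.6. The list's top member was Fscn1, an actin-bundling gene that carcinoma cells also express, with 2478, 2447 and 2565 and 78.3% of the summed per-kb level. The 13 mast cell, basophil and eosinophil genes had a median percentile of 18.4, while the 6 of them with a mean of at least 10 had one of 51.4. Mast cell proteases were read in every tumour, and those named here stood highest in tumour 1. Tryptase gene Tpsb2 had 183, 52.3 and 68.7 normalized counts (percentile 58.5), chymase gene Cma1 had 152, 61.7 and 69.7, and the protease gene Mcpt4 had 125, 43.9 and 47.4 (percentile 50.9). A second tryptase gene, Tpsab1, had 348, 121 and 176. All 4 were lower in both other tumours. Of the 6 list genes with a mean of at least 10, tumour 1 was highest for 5 and tumour 2 for 1, against 31.9% and 34.7% of all genes. A 2-fold range was reached by 3 of the 6, and 1 of these had a mean of at least 100. Among all genes with a mean from 10 to under 100, 26.9% reached that range. Eosinophil genes Prg2 and Epx had 0, 0 and 0.968 and 0, 3.14 and 0, at the detection limit.

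Lymphocyte genes were far lower than macrophage genes. The 28 T cell genes had a median percentile of 29.6, and only Tigit and Cd8a had a mean of at least 100. CD3 gene Cd3e had 38.3, 50.2 and 36.8 normalized counts, and its levels per kb stood below those of Csf1r (10.2 ± 1.80 against 386 ± 26.6). Cd8a had 117, 175 and 114, highest in tumour 2, and Cd8b1 had 43.9, 54.4 and 41.6, while Cd4 had 21.5, 17.8 and 27.1. Foxp3, the transcription factor gene of regulatory T cells, had 18.7, 9.41 and 10.7. The inhibitory receptor gene Tigit had 136, 121 and 162 and 35.1% of the summed per-kb level of the list. Tumour 3 was lowest for 16 of the 25 T cell genes with a mean of at least 10, against 36.7% of all genes. The median difference between tumours 1 and 3 was 0.45 on the log2 scale. For the 2 genes with a mean of at least 100 it had the opposite sign, at -0.11, so the direction rests on genes with few reads. A 2-fold range was reached by 8 of the 25 genes, close to the 26.9% of all genes with a mean from 10 to under 100.

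Genes of cytotoxic cells had a median percentile of 39.3. Perforin gene Prf1 had 181, 217 and 159 normalized counts, granzyme gene Gzmb had 203, 132 and 164 and the NK receptor gene Ncr1 had 38.3, 24 and 31. Interferon gamma gene Ifng itself had 4.67, 4.18 and 5.81, a level of about 5 reads per library. The adjacent granzyme genes Gzmd, Gzme, Gzmf and Gzmg were each highest in tumour 3, for example 86.9, 58.5 and 156 for Gzmf, but near-identical copies may share reads. The list as a whole went the other way, with its median highest in tumour 1 and lowest in tumour 3, by 0.29 on the log2 scale. Of its 18 genes with a mean of at least 10, 5 were highest in tumour 3 and 8 lowest. The shares of all genes were 33.4% and 36.7%. B cell genes were lowest of the lymphoid lists, with a median percentile of 19.0 and no member with a mean of 100. Ms4a1, the CD20 gene, had 1.87, 4.18 and 2.90 normalized counts. Tnfrsf17, a receptor of plasma cells, had 22.4, 19.9 and 16.5.

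Checkpoint genes were uneven in level. The ligand gene Cd274, which encodes PD-L1, had 611, 548 and 478 normalized counts, while its receptor gene Pdcd1 had 22.4, 14.6 and 13.6 and Ctla4 had 15.9, 10.5 and 25.2. The highest of the 17 was Cd47, the signal by which cells resist being engulfed, at 738 ± 22.9 per kb, and its macrophage receptor gene Sirpa was at 296 ± 20.9. Lgals9 and Cd80 had 1038, 961 and 865 and 463, 353 and 528. Tryptophan-degrading enzyme gene Ido1 had 12.2, 33.5 and 34.9, lower in tumour 1. The pan-leukocyte gene Ptprc had 1170.5, 1450.2 and 1364.

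Antigen presentation genes split by class. Class I genes were abundant: B2m had 25993, 28804 and 25053 normalized counts, the heavy chain gene H2-D1 had 19054, 18202 and 16102 and H2-K1 had 3879.7, 4420.5 and 3547, and the median percentile of the 13 genes was 90.4. Peptide transporter gene Tap1 had 2059.5, 1728 and 1188 and was lowest in tumour 3, as were 12 of the 13 genes, against 36.7% of all genes. None of the 13 reached a 2-fold range, which is near the 1.34% of all genes with a mean of at least 100. The median difference between tumours 2 and 3 was 0.35 on the log2 scale. Class II genes, which dendritic cells, B cells and activated macrophages use, showed the same order of tumours with wider gaps. Invariant chain gene Cd74 had 4316, 5792 and 2854, H2-Aa had 926, 1150.1 and 575 and H2-Eb1 had 624, 985 and 343. Ciita, the master activator of class II genes, had 124, 157 and 65.8. All 9 class II genes with a mean of at least 10 were lowest in tumour 3, against 36.7% of all genes, and the median difference between tumours 2 and 3 was 0.99. A 2-fold range was reached by 5 of the 9, and 4 of these had a mean of at least 100, a class in which 1.34% of all genes did so.

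Interferon-stimulated genes followed the same order. Of the 24 genes, tumour 2 was highest for 19 (34.7% of all genes) and tumour 3 lowest for 20 (36.7% of all genes), with a median difference of 0.69 on the log2 scale. Oas2, an antiviral sensor gene, had 823, 1167 and 566 normalized counts. Bst2, which encodes the virus-tethering protein tetherin, had 1560.3, 1811 and 996. Some members did not share the order: Cxcl9, a T cell chemokine gene, was highest in tumour 1 with 782, 545 and 386, and Ifit2 and Oasl1 were nearly level with 585, 602 and 647 and 340.3, 309 and 328. A 2-fold range was reached by 5 genes (Ifit1, Ifit3, Oas2, Cxcl9 and Zbp1), each with a mean of at least 100, a class in which 1.34% of all genes did so. The promoters of the 3 members with an entry and the highest mean normalized count are shown because many genes of this response carry the response element.
Gbp2: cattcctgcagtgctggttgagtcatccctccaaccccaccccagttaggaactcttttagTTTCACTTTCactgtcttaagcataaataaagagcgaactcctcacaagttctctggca
Bst2: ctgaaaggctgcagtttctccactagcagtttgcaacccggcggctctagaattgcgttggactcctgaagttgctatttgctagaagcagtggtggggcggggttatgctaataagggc
Oasl2: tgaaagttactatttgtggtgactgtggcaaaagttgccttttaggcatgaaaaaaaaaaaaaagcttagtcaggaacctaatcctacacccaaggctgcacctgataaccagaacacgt
The Gbp2 stretch holds 1 match on the reverse strand. Bst2 holds 2 matches outside the printed stretch but inside its 300-base window, and Oasl2 holds none in it. An entry was found for only 18 of the 24 genes (75%), so a share over the whole list is void. Of the 18, 11 held a match in the window, as a description of these promoters, and 3.27% of the promoters of genes with a mean of at least 100 did.

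**Figure D2:**
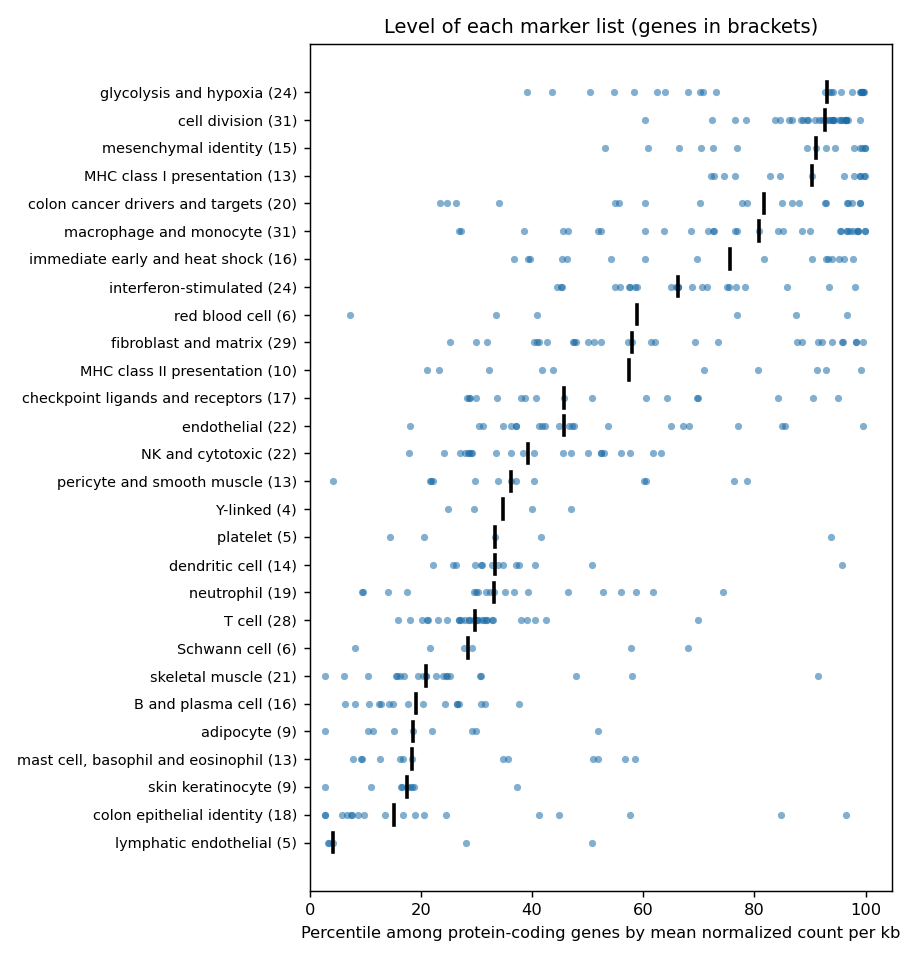
Percentile of each listed gene among protein-coding genes by mean normalized count per kb (horizontal, 100 is the highest), by list (vertical, number of genes in brackets). Points are genes and black bars are list medians, which run from 93.1 for glycolysis and hypoxia to 4.14 for the 5 lymphatic endothelial genes.

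Genes of tissues around the graft were read at low levels, with marked differences in 2 lists. Skeletal muscle genes had a median percentile of 21.0. The muscle actin gene Acta1 had 221, 10.5 and 194 normalized counts, so tumour 2 stood far below the others. Creatine kinase gene Ckm had 22.4, 0 and 12.6 and myosin gene Myh4 had 17.8, 0 and 16.5, both without a read in tumour 2. Tumour 2 was lowest for 11 of the 13 muscle genes with a mean of at least 10, against 32.7% of all genes. The median difference between tumours 1 and 2 was 1.57 on the log2 scale, and 0.94 with a pseudocount of 10 in place of 1. A 2-fold range was reached by 8 of the 13 genes, but only 2 of the 13 had a mean of at least 100. Among all genes with a mean from 10 to under 100, 26.9% reached that range. Eno3, the muscle enolase gene, was level at 862, 803 and 825 and held 70.5% of the summed per-kb level of the list. Adipocyte genes Adipoq and Plin1 had 0.935, 3.14 and 0 and 5.61, 0 and 0.968 normalized counts. Fabp4, which macrophages and endothelium also express, had 399, 235 and 286. Keratinocyte genes Krt5 and Krt14 had 11.2, 0 and 0 and 6.54, 0 and 0. They do not stand for the whole list, in which Krt10 held 71.5% of the summed per-kb level. Of its 9 genes with a row, 2 had a mean of at least 10. Tumour 1 was highest for neither of these 2, against 31.9% of all genes with such a mean. Genes induced by handling or stress were read as well. Immediate early gene Egr1 had 7023, 5720.1 and 6898 and Fos had 213, 199 and 306, and the heat shock gene Hsph1 had 2449, 4646 and 5657, lowest in tumour 1. Hspa1b, which has the near-identical copy Hspa1a, had 436, 663 and 1079.7.

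Blood genes gave the widest list difference. Beta globin genes Hbb-bs and Hbb-bt had 379, 232 and 1661 and 89.7, 47 and 293 normalized counts, and alpha globin gene Hba-a1 had 191, 122 and 570.3. Alas2, the haem synthesis enzyme gene of red cell precursors, had 23.4, 11.5 and 68.7. All 5 red blood cell genes with a mean of at least 10 were highest in tumour 3 (33.4% of all genes) and lowest in tumour 2 (32.7% of all genes), with a median difference of 2.5 on the log2 scale. Each of the 5 reached a 2-fold range, against 6.65% of all genes tested, and 3 of them had a mean of at least 100, where 1.34% did. Globin genes are near-identical copies, so the split between them is uncertain. They are also a classic case of shared promoter elements. The promoters of the 3 red blood cell genes with the highest mean normalized count are shown. Whether these elements bear on the differences between tumours was not tested.
Hbb-bs: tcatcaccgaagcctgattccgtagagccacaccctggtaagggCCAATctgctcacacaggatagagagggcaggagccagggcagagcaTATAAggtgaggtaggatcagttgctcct
Hba-a1: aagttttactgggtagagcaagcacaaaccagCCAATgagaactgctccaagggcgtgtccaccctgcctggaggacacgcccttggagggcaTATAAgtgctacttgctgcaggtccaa
Hbb-bt: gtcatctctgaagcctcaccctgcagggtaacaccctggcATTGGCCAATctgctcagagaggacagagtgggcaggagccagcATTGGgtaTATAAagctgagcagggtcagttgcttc
Each stretch holds CCAAT upstream of 1 TATAA, and the TATAA begins 29, 27 and 28 bases before the start in Hbb-bs, Hba-a1 and Hbb-bt. All 5 genes with a mean of at least 10 had TATAA in their window, against 13.3% of promoters of genes with such a mean and 25.5% of all promoters listed. CCAAT was held by 4 of the 5, against 39.0% and 37.9% of the same 2 sets of promoters. Platelet factor gene Pf4, which macrophages also express, had 393, 359 and 588 and ranked 1012, while the platelet receptor gene Gp9 had 0, 2.09 and 3.87.

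**Figure D3:**
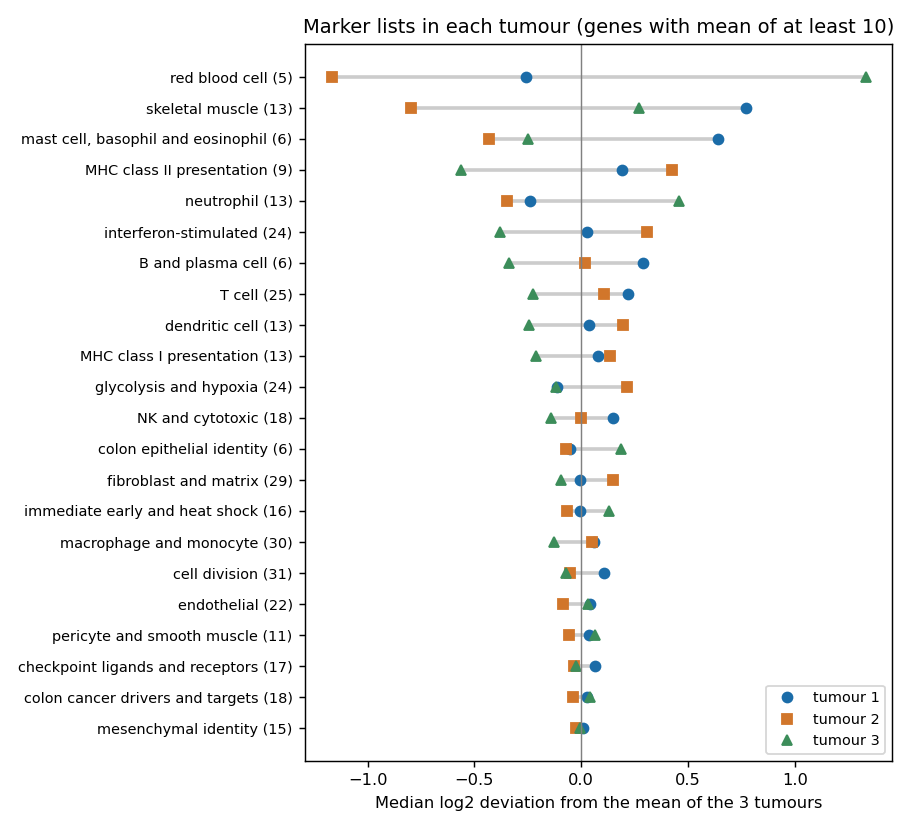
Median log2 deviation of each tumour from the mean of the 3 tumours (horizontal) for 22 lists with at least 5 genes of mean 10 or more (vertical, number of such genes in brackets). Each marker is 1 tumour. The red blood cell list spans 2.5 and the mesenchymal list 0.034, and tumour 3 lies lowest for both MHC classes and for interferon-stimulated genes.

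Across all genes the 3 tumours were close. The median CV of the 12520 genes with a mean of at least 10 was 10.8%. The CV expected from counting, taken from each gene's mean reads, had a median of 4.48%. This and the counting values below are expected CVs, and a median of CVs from 3 samples tends to lie below them. The part above counting was 8.94%, the root of the median of squared CV less squared counting CV. For the same reason this value is likely low, and edgeR's common dispersion gave 13.2%. Spread narrowed as levels rose. Genes with a mean from 10 to under 100 had a median CV of 25.0%, where counting alone gives 17.3%. From 100 to under 1000 it was 10.2%, from 1000 to under 10000 it was 7.94%, and for the 114 genes above that it was 7.27%, where counting alone gives 0.796%. A range of at least 2-fold between the highest and lowest tumour, on the log2(value + 1) scale, was seen for 833 genes (6.65%). Between the 2 tumours left, it was seen for 498 without tumour 1, 345 without tumour 2 and 405 without tumour 3. With a mean of at least 100 it was seen for 133 genes (1.34%). Tumour 2 was the highest for 67 of these 133 genes, tumour 1 for 38 and tumour 3 for 28, which is 0.675, 0.383 and 0.282% of the 9922 genes. Tumour 3 was the lowest for 62, tumour 2 for 44 and tumour 1 for 27 (0.625, 0.443 and 0.272%). Cytosolic ribosomal protein genes had a median CV of 9.39%, between that of genes with a mean from 100 to under 1000 and that of genes from 1000 to under 10000.

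**Figure D4:**
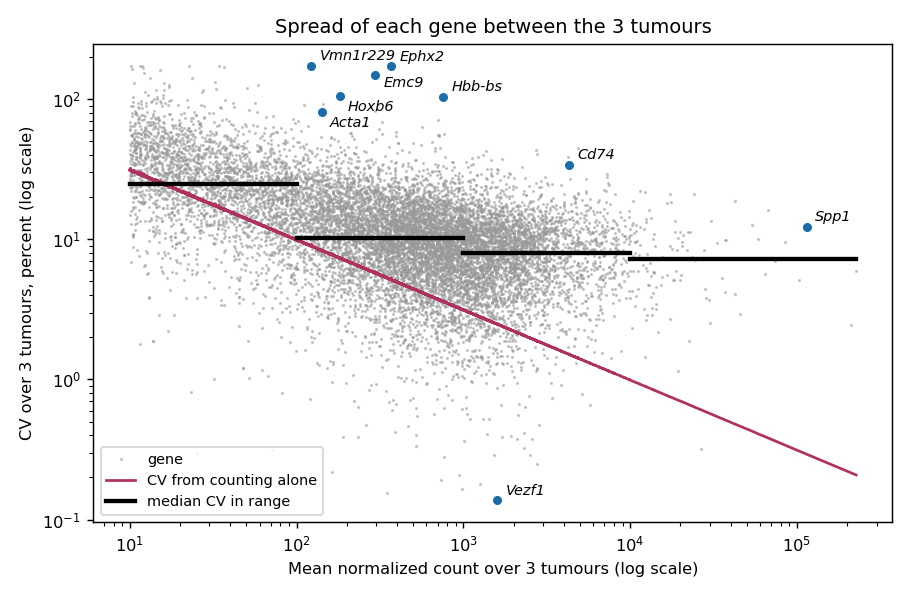
CV over the 3 tumours in percent (vertical, log scale) against mean normalized count (horizontal, log scale) for genes with a mean of at least 10. The red line is the CV from counting alone, black bars are median CVs in 4 ranges of level (25.0, 10.2, 7.94 and 7.27%), and 9 genes are marked.

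The smallest ranges among genes with a mean of at least 100 were below counting noise. Vezf1, a zinc finger transcription factor gene, had 1599.6, 1604 and 1603 normalized counts, and Snapin, which acts in vesicle fusion, had 983, 985 and 987. Hras, a small GTPase gene, had 739, 738 and 741, and Taf5, a subunit gene of the general transcription factor TFIID, had 349, 348 and 348. The CV of Vezf1 was 0.137%, below the 2.47% that counting alone gives, so these values lay closer together than repeated counting would place them on average. A CV at or below counting was found for 16.1% of the 6290 genes with a mean from 100 to under 1000.

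The largest ranges belonged to genes read in 1 tumour far above the others. Vmn1r229, a pheromone receptor gene on chromosome 17 (20811555 to 20823627, GRCm38), had 0, 368 and 0 normalized counts, that is 352 reads in tumour 2 and 0 in the others. Against the floor of 3 reads this is at least 131-fold higher than in tumour 1 and at least 127-fold higher than in tumour 3. The next gene in the table, Ppp2r1a, had 3616, 3542 and 3643, and the next protein-coding gene before it, Vmn2r99, had 0 reads in all 3 tumours. Ephx2, the soluble epoxide hydrolase gene on chromosome 14 (66084374 to 66124500), had 6.54, 1101 and 2.90. That was 168 times the level of tumour 1 (95% interval 81.4 to 419 from counting error only) and 379 times that of tumour 3 (129 to 1841). Its neighbour Clu, which encodes the chaperone clusterin, was also highest in tumour 2 with 433, 1283 and 395, while Ptk2b on the other side had 329, 335 and 219.8. Chrna2, between Ephx2 and Ptk2b, had 0 reads.

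Emc9, a subunit gene of a complex that inserts membrane proteins, had 70.1, 801 and 17.4 normalized counts and was again highest in tumour 2. It lies on chromosome 14 (55581516 to 55585302), and its end overlaps that of Psme1 on the opposite strand. Psme1 had 1782, 1691 and 1418, and Psme2 on the other side had 765, 578 and 742, so neither shared this pattern. Hoxb6, a homeobox gene of body patterning on chromosome 11 (96292476 to 96301569), had 403, 70.1 and 70.7 and was highest in tumour 1. Its protein-coding neighbours Hoxb5 and Hoxb7 stayed between 9.41 and 38.3. Tumours 2 and 3 were nearly equal for Hoxb6. Of the other genes with the largest ranges, Ephb3, an ephrin receptor gene, had 99.1, 199.7 and 52.3, and Islr, a gene of stromal cells, had 204, 437 and 118. Both were highest in tumour 2 and lowest in tumour 3. The actin-binding gene Avil had 371, 120.2 and 401, low in tumour 2. Cathepsin K gene Ctsk and laminin gene Lama2 were highest in tumour 1, with 226, 82.6 and 113 and 1147, 367 and 633.

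Some genes set tumour 3 apart from below. The interferon-induced GTPase gene Tgtp2 had 335, 294 and 132 normalized counts, Ifi27l2a had 198, 213 and 93 and the B cell and myeloid surface gene Cd72 had 201, 257 and 92. None of the 3 belongs to the interferon or class II list. Ifi27l2a and Cd72 were highest in tumour 2, as were the medians of these lists, whereas Tgtp2 was highest in tumour 1. Tumour 2 was lowest for Cdsn, a gene of cornified skin, with 418, 185 and 417, and for the carbonic anhydrase gene Car6 with 839.5, 343 and 850.2. In both, tumours 1 and 3 were nearly equal.

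**Figure D5:**
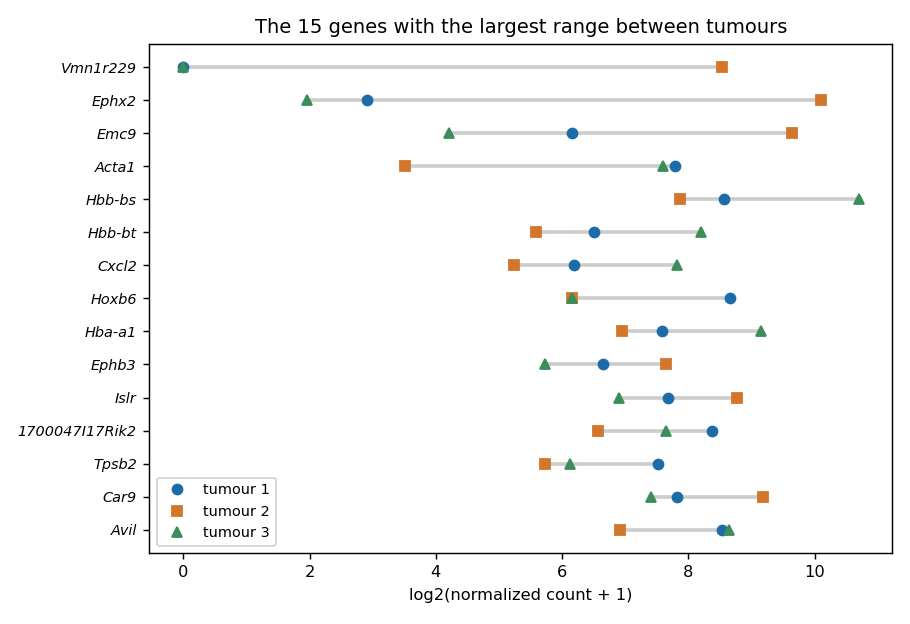
Level of the 15 genes with the largest range among those with a mean of at least 100, as log2(normalized count + 1) (horizontal), by gene (vertical). Each marker is 1 tumour. Tumour 2 is far above the others for Vmn1r229, Ephx2 and Emc9 and far below for Acta1, and tumour 3 is above for the globin genes and Cxcl2.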

How the data were processed

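Bulk RNA sequencing of 3 solvent-treated tumours was analysed. Each deposited column of a tumour gives a signal on a normalized scale: the authors' read counts scaled by a single factor for each library. The submitters' processing notes list DESeq2 1.20.0, featureCounts 1.5.0-p3, HISAT2 2.0.5, fastp and CASAVA, and the mouse build GRCm38 (mm10). The role of each tool, the annotation release and the strand setting were not stated. Whole reads were recovered by division: 100% of values were whole at a tolerance of 1e-06, which gave 13940650 to 15656894 reads per library. The labels mention no molecular identifiers, so reads may be copies of 1 molecule, and intervals and floors cover counting error only.

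Levels, ranks per kb of the deposited gene length, CVs, and ranges on log2(value + 1) were computed with Python 3.11.15 and pandas 2.3.3. Scaling alternatives and a dispersion estimate used edgeR 4.0.16 in R 4.3.3, on the recovered reads. The spread calculation was tested on simulated data, as the root of the mean squared CV above counting for genes with a mean of at least 100. The reported CV above counting uses the median over genes with a mean of at least 10, which was not tested in this way. With 1 group there was no test and no p-value. Where a symbol had more than 1 row (4 symbols), lists used the higher one. Ratios against a gene with few reads have a 95% interval.

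Genes were named by rule: the 20 highest per kb and 10 highest by count, the 15 largest and 10 smallest ranges at a mean of at least 100, the 5 farthest above and below in each tumour, the top members of each list, and a fixed panel. Some genes of the lists and the panel are counted but not reported here by name. Further list members and neighbouring genes were named after their values were seen. The lists, panel and rule were written with earlier results of these data known. The look-up of neighbours of 4 genes, the 3 promoter motifs and the lists searched for them (6 lists and 6 sets of genes by level or range) were chosen after values were seen. Printed promoters are the 3 members with an entry and the highest mean normalized count in each of 3 lists, whatever they hold, and replaced an earlier hand-picked set. RefSeq promoters (GRCm38.p6) were matched by symbol, using the first start listed. Results were recomputed with other scalings, filters, pseudocounts, gene length and with 1 tumour left out.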

Additional observations from a re-analysis of the deposited data

How the results depend on the processing

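Every alternative for genes detected gave a count within 1.5 times the reported one. The 100 highest genes held 19.2% of the signal without division by gene length and 26.7% without the mitochondrially encoded genes, instead of 34.0%. A range of at least 2-fold was seen for 833 genes with a mean of at least 10, for 133 with a mean of at least 100, for 3179 with any mean above 0, and for 420 with a pseudocount of 10 in place of 1. With 1 tumour left out the count was 345 to 498, where the range is taken over 2 tumours. The CV above counting was 8.94%, against 13.2% as edgeR's common dispersion and 5.89 to 7.17% with 1 tumour left out. All but the edgeR value are roots of medians, which tend to be low with so few samples. The gap to edgeR is therefore not a matter of processing alone. Scaling by total reads, by TMM or by median of ratios moved none of these results past its limit.

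The level of a list was taken over all members with a row. Without division by gene length, 19 of the 28 list medians moved by more than their SD between tumours: 91.9 for mesenchymal identity, 91.7 for cell division, 90.7 for colon cancer drivers and targets, 88.2 for glycolysis and hypoxia, 62.4 for fibroblast and matrix, 47.4 for endothelial, 12.3 for lymphatic endothelial, 69.4 for macrophage and monocyte, 30.2 for neutrophil, 31.3 for dendritic cell, 31.7 for NK and cytotoxic, 21.0 for B and plasma cell, 59.4 for interferon-stimulated, 44.9 for MHC class II presentation, 62.4 for immediate early and heat shock, 14.2 for adipocyte, 36.6 for red blood cell, 31.6 for platelet and 38.8 for Y-linked. The alternative planned for low values, members with any read, moved 1 median, to 17.9 for colon epithelial identity. Keeping only members with a mean of at least 10, an alternative added after the data were seen, moved 13: 51.2 for colon epithelial identity, 85.8 for colon cancer drivers and targets, 39.4 for lymphatic endothelial, 39.2 for neutrophil, 51.4 for mast cell, basophil and eosinophil, 46.3 for NK and cytotoxic, 28.8 for B and plasma cell, 71.0 for MHC class II presentation, 30.0 for adipocyte, 27.7 for skin keratinocyte, 57.7 for Schwann cell, 76.8 for red blood cell and 41.6 for platelet. With 1 tumour left out, the medians that moved ran over 55.5 to 58.8 for fibroblast and matrix, 5.19 to 6.14 for lymphatic endothelial, 32.3 to 34.3 for dendritic cell, 17.2 to 19.9 for B and plasma cell, 17.5 to 21.5 for adipocyte, 4.68 to 19.3 for skin keratinocyte and 32.1 to 34.2 for platelet.

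Differences between the highest and lowest tumour, given for lists with at least 5 members of mean 10 or more, kept their direction in all alternatives other than leaving out a tumour, except 2. At a mean of at least 100 the difference was -0.11 for T cell genes (2 genes) and -0.050 for checkpoint genes, and for colon epithelial identity it shrank to 0.064. With 1 tumour left out the value is the difference between the 2 that remain, so it shrinks where an extreme tumour is removed. It then ran from -0.029 to 0.052 for mesenchymal identity, 0.024 to 0.18 for cell division, 0.017 to 0.084 for colon cancer drivers and targets, 0.060 to 0.37 for glycolysis and hypoxia, 0.100 to 0.26 for fibroblast and matrix, -0.016 to 0.081 for pericyte and smooth muscle, 0.057 to 0.11 for endothelial, 0.00014 to 0.18 for macrophage and monocyte, -0.092 to 1.07 for neutrophil and 0.065 to 0.52 for dendritic cell. For the others it ran from 0.13 to 0.32 for colon epithelial identity, 0.15 to 0.30 for NK and cytotoxic, 0.14 to 1.07 for mast cell, basophil and eosinophil, 0.17 to 0.47 for T cell, 0.30 to 0.53 for B and plasma cell, 0.058 to 0.17 for checkpoint ligands and receptors, 0.26 to 0.69 for interferon-stimulated, 0.14 to 0.31 for MHC class I presentation, 0.17 to 1.01 for MHC class II presentation, 0.093 to 0.22 for immediate early and heat shock, 0.27 to 1.29 for skeletal muscle and 0.92 to 2.48 for red blood cell. The negative values are changes of direction, for mesenchymal identity, pericyte and smooth muscle, and neutrophil genes.

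No paired analysis was possible because the report uses 1 group. Limits that no setting removes are the number of tumours and the counting error of genes with few reads, which holds for most lymphocyte genes.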

Other observations

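The 4 Y-linked genes on the list were read in all 3 tumours. Ddx3y, an RNA helicase gene, had 239, 283 and 289 normalized counts, and Kdm5d, a histone demethylase gene, had 66.4, 71.1 and 52.3. The labels give the sex of neither the host mice nor the CT26 line, so the source of these reads was not tested.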
